A study of Bombus terrestris audax with 20 samples.

Results

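The 60 genes described here were those named genes of the bumblebee Bombus terrestris audax whose abundance in late-instar female larvae stood highest above both earlier larval stages. They were taken from 383 named features, among 14817 features of the deposited table. The names came from a gene list of the study that is ordered by the caste difference of early-instar larvae, of which 1054 lines could be read. Of these lines, 451 carried a name that tells something of the product, and 391 of the 451 spanned less than 100 kb. Products named as P450 enzymes, chymotrypsins or cuticle proteins were left out. For each remaining feature the value log2(abundance + 20) was averaged within each phenotype and over both castes of a stage. The 60 features with the largest late mean minus the higher of the early and mid means were kept, and this difference is called the late excess below. The genes were thus chosen by the late excess, and it is given as a description with no test. The same holds for the early caste difference, since the list is ordered by it.

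Whole larvae were pooled within a colony, and mRNA-seq libraries were compared between queen-destined (Q) and worker-destined (W) larvae of early (E), mid (M) and late (L) instar, which gives the phenotypes EQ, EW, MQ, MW, LQ and LW. There were 3 libraries of each phenotype except MW, which had 2. Queen-destined larvae came from queenless colonies and worker-destined larvae from queenright colonies, so caste and the state of the colony cannot be told apart, and libraries of different stages often came from the same colony. Values are normalised abundances that the authors corrected for transcript length. Before that they resampled every library to the size of the smallest one kept, which was LW1. The values are listed in the order of the library numbers, which are 1, 2 and 4 for MQ and LQ, 2 and 3 for MW, and 1, 2 and 3 for EQ, EW and LW. Positions are whole gene spans in the build Bter_1.0. In pooled whole bodies, more cells of a type and more RNA per cell cannot be told apart.

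The last larval instar of an insect with complete metamorphosis is the stage of reserve building. The fat body, which does the work of liver and adipose tissue, fills with lipid, glycogen and protein and secretes storage proteins into the haemolymph, and bumblebee larvae close the stage by spinning a silk cocoon with their labial glands. Trehalose is the main sugar of insect blood, and membrane traffic, autophagy and ubiquitin-directed protein breakdown are all active as larval tissues prepare for the pupa.

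The late excess of the 60 genes ran from 0.46 to 6.97 with a median of 0.75, against medians of 0.05 over the 383 named features and -0.07 over all features. It was above 2 in 5 genes, between 1 and 2 in 11 and under 1 in 44. At the lower end, big brother-like and bicaudal D (0.46 each) and the ER degradation-enhancing mannosidase-like protein 3 (0.46) were the last to enter. F-box only protein 11 (0.44), a mitochondrial thiamine pyrophosphate carrier-like protein (0.43) and CSC1-like protein 2 (0.43) were the first left out. Early and mid means lay within 0.5 of each other in 57 of the 60, and the mid mean was the higher one in 45. A late excess at least as large as that of the last of the 60 was found in 1905 of all features, and these include named genes outside the lines that could be read or left out by the rule.

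**Figure D1:**
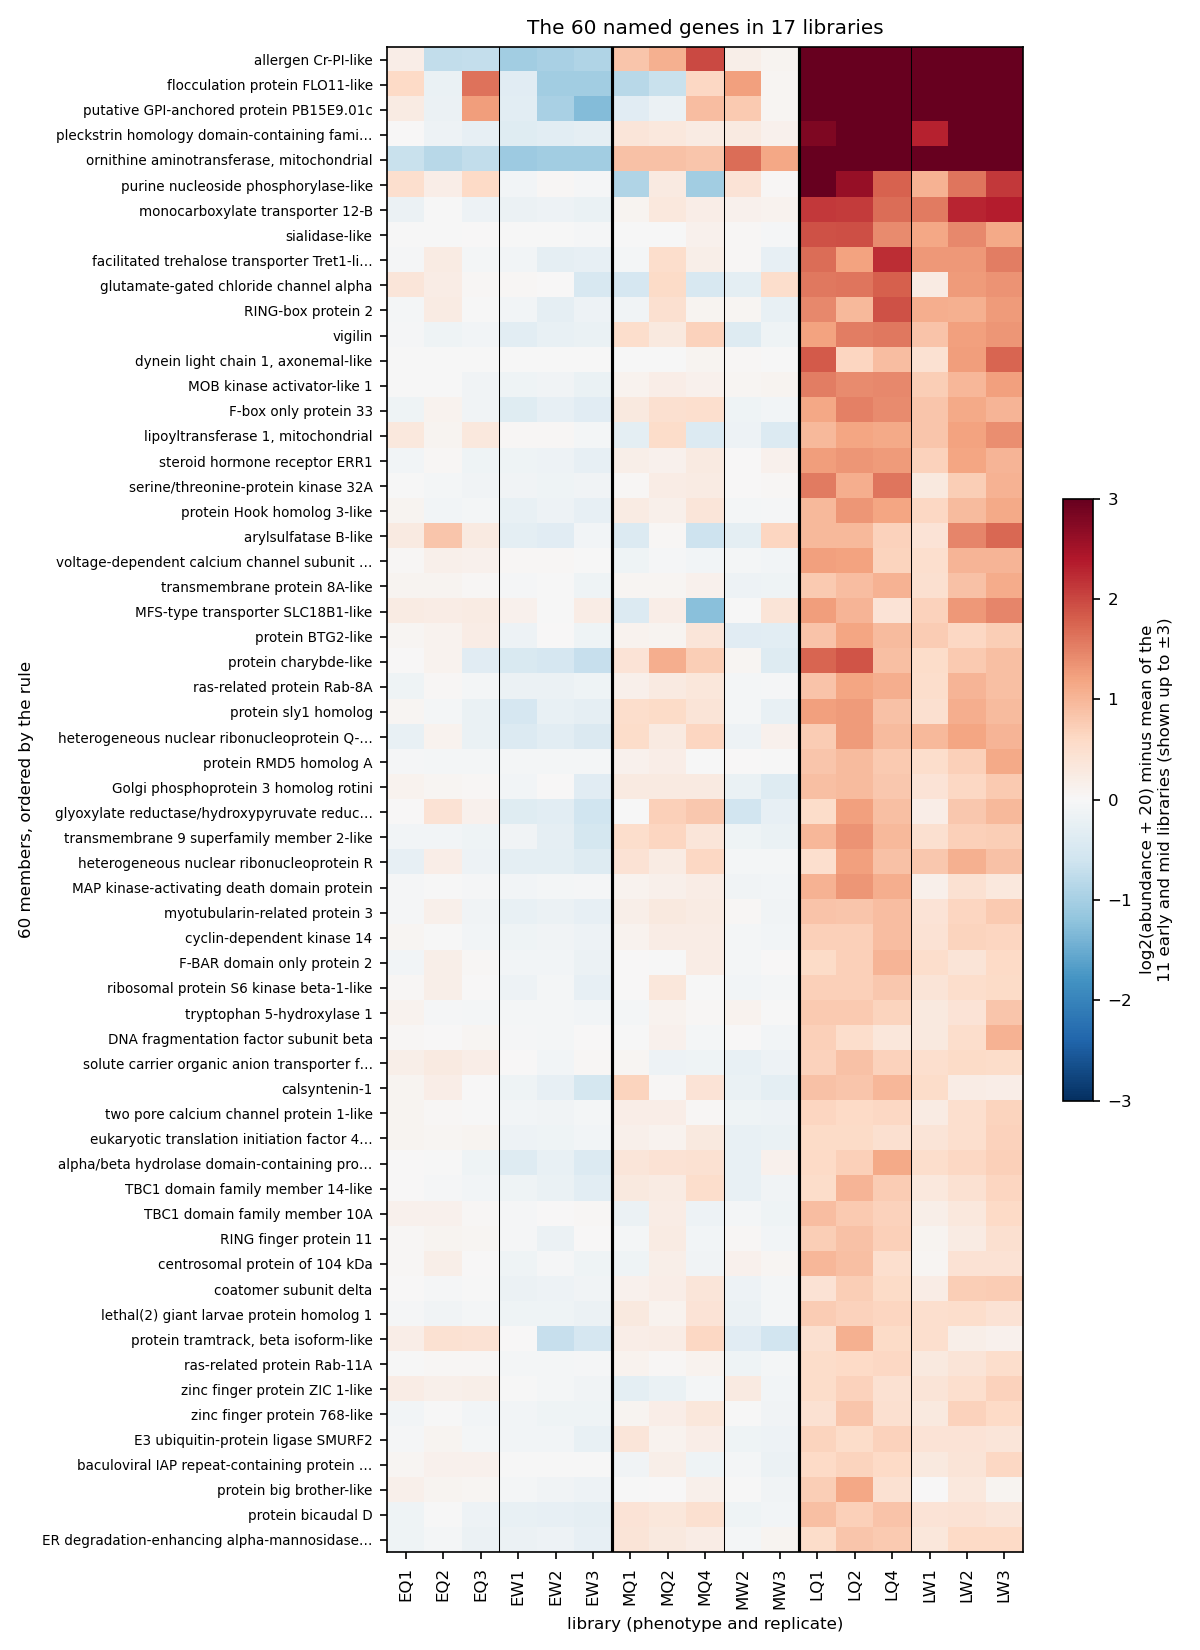
Colours show log2(abundance + 20) of each of the 60 genes in each of the 17 libraries, minus the mean of that gene over the 11 early and mid libraries, cut at 3 in either direction, with genes in the order of the late excess and thick lines between stages. The 6 late libraries form the red block on the right, its depth falls from the top rows to the bottom rows, and the column of LW1 is paler than its neighbours.

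One late library stood apart in these genes. LW1 was the lowest of the 6 late libraries in 43 of the 60 and the highest in 0, whereas over all features it was the lowest in 33% and over the 383 named features in 41.8%. On a scale where 0 is the mean of the mid libraries and 1 the mean of the other late libraries, the median gene placed LW1 at 0.53 and the remaining late libraries between 0.89 and 1.29. Over the 1443 features of the table whose mean in the other late libraries differed from the mid mean by at least 1 in log2, in either direction, LW1 lay at 0.47. The late caste counts, the late median and the calls that change without LW1 are therefore also given without it. Every late library exceeded every early and mid library in 41 of the 60 genes, and in 51 once LW1 was set aside, against 8.16% and 15.3% of all features. These counts follow from the choice of the genes and are not evidence about them.

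**Figure D2:**
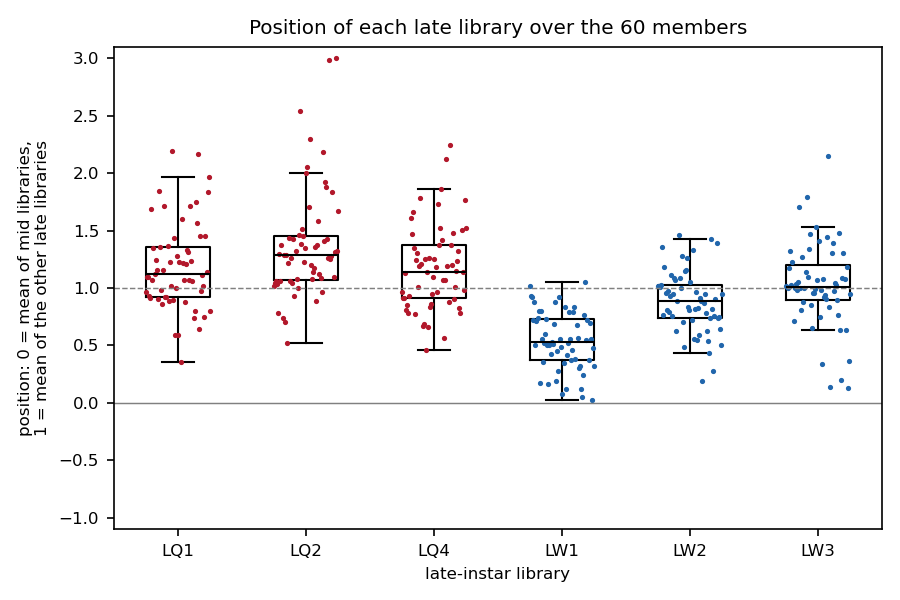
Each point is 1 of the 60 genes, placed on a scale where 0 is its mean over the mid libraries and 1 its mean over the other late libraries, with boxes for the quartiles and the median of each late library and points beyond the axis drawn at its edge. The box of LW1 has its median at 0.53 and lies below those of LQ1, LQ2, LQ4, LW2 and LW3.

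Caste differences within the mid and late stages were not used in choosing the genes and were tested with limma across all 14817 features. At the mid stage 14 of the 60 genes were higher in MQ than in MW, where 4.72% of all features and 17.5% of the 383 named features were called in that direction. None of the 60 was called higher in MW (0 by limma, against 3.31% of all and 1.04% of the named features). In that direction 2 had an unadjusted p under 0.05, against 9.81% of all and 2.09% of the named features. At the late stage 8 of the 60 were higher in LQ than in LW, where the share was 3.21% of all features and 5.22% of the named features, and 0 were higher in LW by limma, against 1.34% of all and 0.783% of the named features. At an unadjusted p under 0.05, 1 was higher in LW, against 8.6% of all and 4.7% of the named features. The named features come from a list ordered by the early caste difference and were more often called towards queen-destined larvae than all features, so the share over the 383 is the nearer comparison.

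The median queen minus worker difference of the 60 genes was 0.24 in mid-instar and 0.24 in late-instar larvae, on the log2(abundance + 20) scale. Over the other named features these medians were 0.15 and 0.04, and over all features 0.04 and 0.02. Values were above 0 in 49 of the 60 at the mid stage, beside 56.5% of all and 81.2% of the named features. They were above 0 in 50 at the late stage, beside 52.7% of all and 68.1% of the named features. Without LW1 the late median was 0.14, beside 0.05 over the 383 named features and -0.00119 over all, and 43 of the 60 were above 0, beside 49.7% of all and 64.8% of the named features. By the ranges of the castes, 33 genes had every MQ library above every MW library (25.1% of all and 48% of the named features) and 1, ornithine aminotransferase, had the reverse (17.4% and 2.61%). At the late stage 23 genes had every LQ library above every LW library (13.3% of all and 23.5% of the named features) and 0 the reverse (9.66% and 5.48%). Without LW1 these counts were 24 (18.1% and 30.8%) and 5 (18.1% and 12.8%). In the early stage, whose caste difference ordered the source list, 48 of the 60 had EQ above EW (5.51% of all features) and 0 EW above EQ (9.02%), from which nothing is read.

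The mid count rested on few libraries: without MW2 it was 0, without MW3 1 and without MQ4 3, each of the first pair leaving a single MW library that is assumed to vary like the other groups. Without LW1 the mid count was 18. It then added glyoxylate reductase/hydroxypyruvate reductase (adjusted p = 0.0378), the calcium channel LOC100648835 (0.0409), coatomer subunit delta (0.0454) and the MAP kinase-activating death domain protein (0.0494). The late count was 3 without LQ1, 5 without LQ2, 5 without LW2 and 4 without LW1, where MOB kinase activator-like 1, the MAP kinase-activating death domain protein, calsyntenin-1 and bicaudal D were called. The change of the caste difference from mid to late was called in 1 of the 60 towards queen-destined larvae (1.42% of all and 1.04% of the named features) and in 0 towards worker-destined larvae by limma (1.05% and 3.92%). At an unadjusted p under 0.05, 8 changed towards queen-destined larvae (8.77% of all and 5.22% of the named features) and 4 towards worker-destined larvae (9.82% and 18.3%). The 1 called gene was the MAP kinase-activating death domain protein, and it was not called without MW2 or without MW3.

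**Figure D3:**
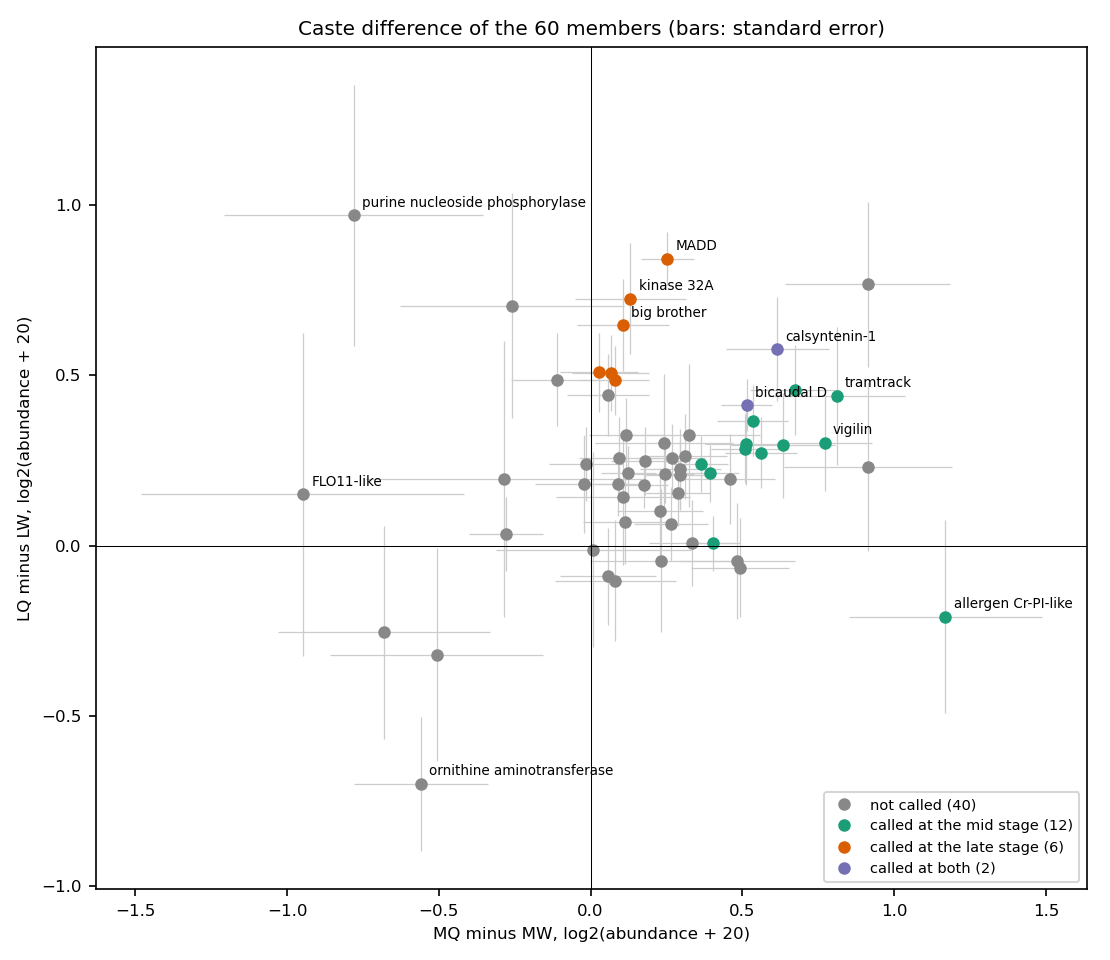
The horizontal axis gives MQ minus MW and the vertical axis LQ minus LW in log2(abundance + 20) for each of the 60 genes, with bars of 1 standard error and colours for genes called by limma at 1 or both stages. The 14 genes called at the mid stage lie to the right of 0 and the 8 called at the late stage above 0, while ornithine aminotransferase lies lowest on the vertical axis at -0.70.

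The 3 largest late excesses, from 5.22 to 6.97, belonged to genes placed by their names in the list of storage and secreted structural proteins. Only the first is named after a storage protein, and the other names are those of yeast proteins, which imply no role in the bee. The list as a whole did not share these large excesses, with a median of -0.20 and a late excess above 0 in 5 of its 11 genes. Allergen Cr-PI-like (LOC100646552, NC_015772.1, 15766304 to 15770571, minus strand) is named after an allergen of the American cockroach that belongs to the hexamerins, the storage proteins that larvae secrete and later draw on for metamorphosis. Its abundances were 2019.7, 1037 and 1059 in EQ, 842, 880.3 and 932 in EW, 3140.0, 3662 and 7002 in MQ, 1976 and 1846 in MW, 314915, 390971 and 314915 in LQ, and 390971, 390971 and 390971 in LW. Every late library was far above every earlier one, and the 3 MQ libraries lay above both MW libraries. In 4 late libraries it was the most abundant feature of the whole table, at the table maximum of 390971, and in LQ1 and LQ4 it ranked second. Quantile normalisation sets the value at each rank, so the late values of this gene reflect its rank and a caste difference at that stage cannot be read from them. At the mid stage, where it ranked 189th to 704th, it was 2.41-fold higher in MQ than in MW by the means (log2 difference 1.17, SE 0.32, adjusted p = 0.0410). The adjusted p ranged from 0.0246 to 0.191 when each library was left out in turn, and the call was lost in 9 of these 17 fits.

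Flocculation protein FLO11-like (LOC100646202, NC_015775.1, 6641640 to 6646475, plus strand) carries the name of a serine- and threonine-rich cell wall protein of yeast, and no role in the bee is implied by it. Its abundances were 255, 137 and 547 in EQ, 124, 67.9 and 68.6 in EW, 81.4, 94.5 and 258 in MQ, 410.2 and 169 in MW, 10984, 9377 and 6196 in LQ, and 6487, 8543 and 8417 in LW. A second gene, putative GPI-anchored protein PB15E9.01c (LOC105666895, NW_003566184.1, 4 to 1200, minus strand), is named after a protein of fission yeast and lies on an unplaced scaffold. Its abundances were 72.1, 48.7 and 166 in EQ, 42.4, 19.4 and 11.7 in EW, 41.03, 48.96 and 127 in MQ, 114 and 60.9 in MW, 4652, 4182 and 2659 in LQ, and 2735, 3598 and 3492 in LW. Both genes had high values in every late library and moved alike among libraries, EQ3 being the highest early library and LQ4 the lowest late library in both. The ratio of the first to the second was 2.24 to 2.41 over the 6 late libraries, but 2.82 to 5.86 early and 1.93 to 3.61 mid. Reads that align at several places were kept in the counts, so how far these genes share reads was not tested. Neither was called between castes at the mid stage (-0.95, SE 0.53, adjusted p = 0.292 for FLO11-like and -0.29, SE 0.45, adjusted p = 0.750 for PB15E9.01c) and the late ranges of the castes overlapped.

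**Figure D4:**
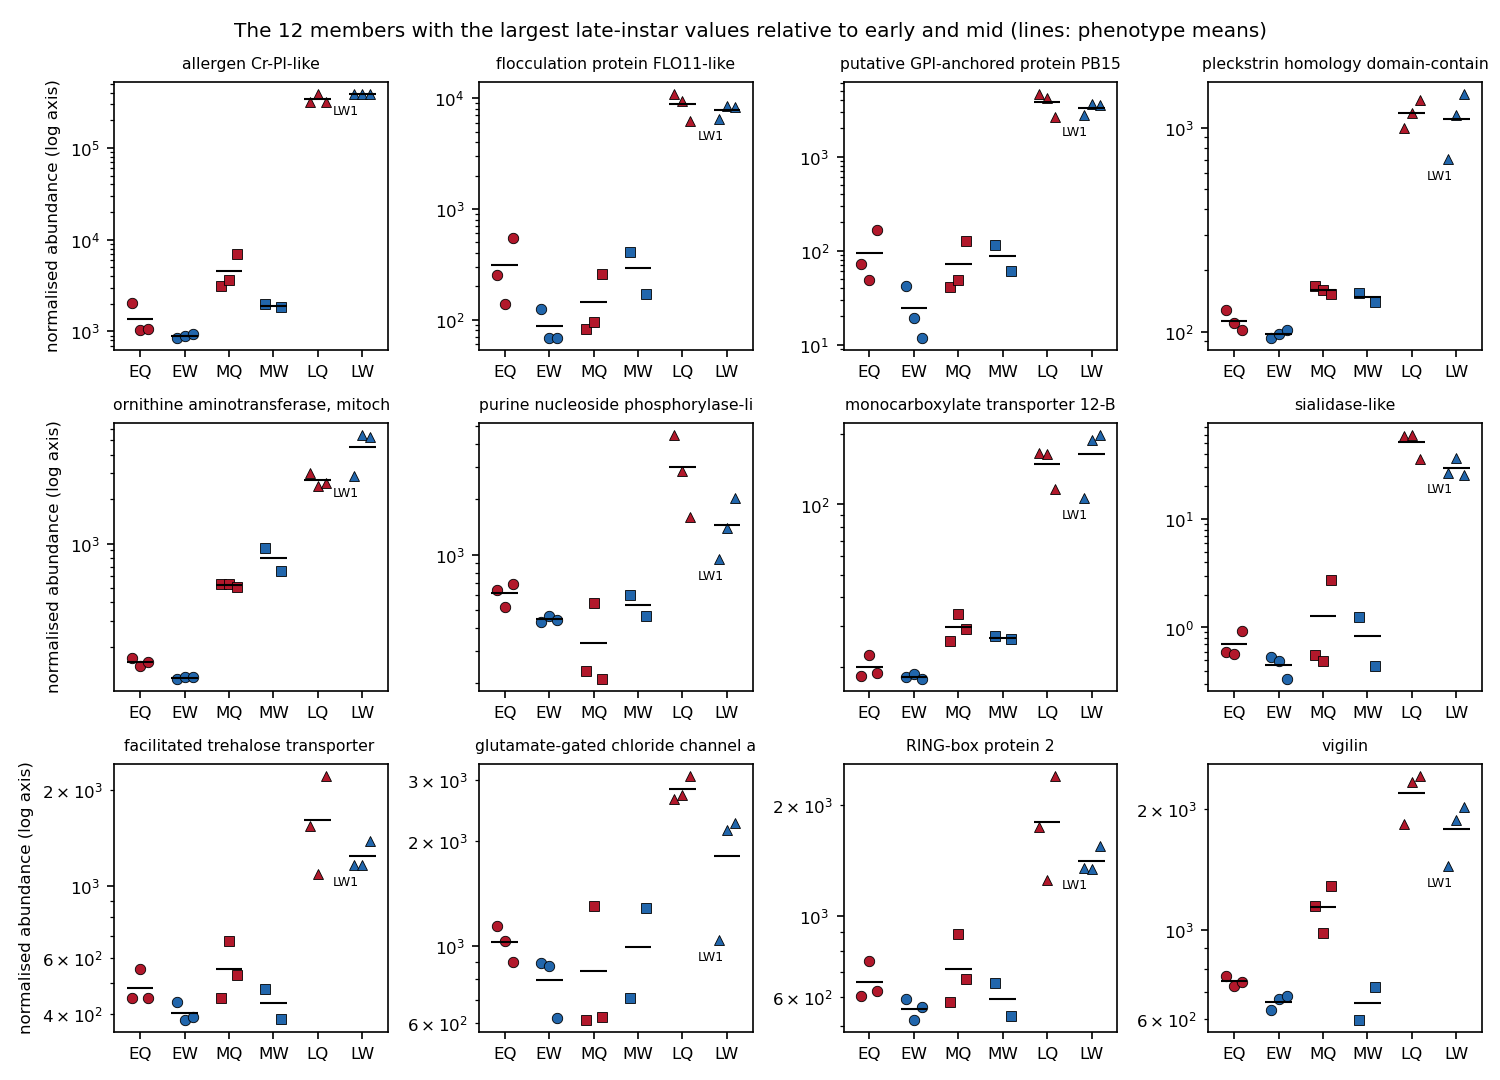
Normalised abundance on log axes is shown for the 12 genes with the largest late excess, 1 point per library with queen-destined larvae in red and worker-destined larvae in blue and a line at each phenotype mean. LW1 is labelled. Late points lie above the early and mid points of the same panel in all of the 12 but the glutamate-gated chloride channel, where LW1 at 1035 lies among them.

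Of 22 metabolic enzymes in the list, 8 were among the 60. Ornithine aminotransferase (LOC100646964, NC_015776.1, 2690201 to 2692833, minus strand), a mitochondrial enzyme that turns ornithine into the precursor of proline and glutamate, was higher at each later stage. Its abundances were 167, 148 and 159 in EQ, 121, 126 and 126 in EW, 533, 533 and 512 in MQ, 938 and 655 in MW, 3009.8, 2461 and 2561 in LQ, and 2872, 5451 and 5230.1 in LW. The stages did not overlap, and LW2 and LW3 stood above the LQ libraries while LW1 lay among them. It was the gene with the lowest queen minus worker value at the late stage (log2 difference -0.70, SE 0.20, adjusted p = 0.0616) and was -0.56 at the mid stage (SE 0.22, adjusted p = 0.137), so neither difference passed the test. Without LW1 both did, at -0.996 with adjusted p = 0.00130 late and at -0.56 with adjusted p = 0.0190 mid, and the late difference also passed when only the 10005 annotated features entered the fit (adjusted p = 0.0444).

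Purine nucleoside phosphorylase-like (LOC100643580, NC_015771.1, 9479636 to 9488355, plus strand), an enzyme of purine salvage, spread widely within castes. Its abundances were 646, 521 and 693 in EQ, 429, 466 and 444 in EW, 232, 544 and 210.0 in MQ, 602 and 465 in MW, 4505, 2872 and 1599 in LQ, and 945, 1405 and 2029.6 in LW. All late libraries exceeded all earlier ones, with LW1 the lowest of them, and MQ2 stood apart from the other MQ libraries. The caste difference was -0.78 (SE 0.43, adjusted p = 0.280) at the mid stage and 0.97 (SE 0.38, adjusted p = 0.163) at the late stage. Its change between the stages was the largest of the 60 (1.75) but did not pass the test. Among the fits with 1 library left out, it passed only without MQ2 (2.16, adjusted p = 0.0250).

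Sialidase-like (LOC100651895, NC_015775.1, 6514720 to 6533432, plus strand), named for enzymes that cleave sialic acid from sugar chains, was close to 0 before the late stage. Its abundances were 0.593, 0.574 and 0.925 in EQ, 0.531, 0.487 and 0.333 in EW, 0.559, 0.487 and 2.75 in MQ, 1.24 and 0.438 in MW, 58.7, 59.9 and 35.7 in LQ, and 26.9, 36.8 and 25.7 in LW. Late values were far above the rest, and LQ1 and LQ2 were the highest, while LQ4 lay among the LW libraries. The late caste difference passed the test although the ranges overlapped (log2 difference 0.51, SE 0.12, adjusted p = 0.0259), and it did not pass without LQ1, LQ2, LW1 or LW3 (highest adjusted p = 0.110). Nor did it pass with an offset of 1 or with late libraries alone, and the highest adjusted p of all alternatives was 0.267. For a gene this low at earlier stages the shared spread comes mostly from libraries where it is barely present, so its standard error can be too small.

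Lipoyltransferase 1 (703 to 1392 early and mid and 1679 to 2500.5 late) attaches the lipoyl cofactor to mitochondrial dehydrogenases. Arylsulfatase B-like (3.8 to 45.1 early and mid and 28.9 to 101 late), a lysosomal enzyme of glycosaminoglycan breakdown, varied most among the earlier libraries, where EQ2 and MW3 reached late levels. Glyoxylate reductase/hydroxypyruvate reductase (791 to 2122 early and mid and 1383 to 2841 late) and the depalmitoylase-related alpha/beta hydrolase domain-containing protein 17B (29.2 to 69.1 early and mid and 73.6 to 123 late) also had overlapping or nearly touching stage ranges. Tryptophan 5-hydroxylase 1 (4.19 to 7.75 early and mid and 11.3 to 25.9 late), whose enzyme makes the first step of serotonin synthesis, was low throughout. Of the 8 enzymes, 0 were called at the mid stage (0 of 8 in either direction by limma) and 1, sialidase-like, at the late stage. In the whole list of 22, 3 were called higher in MQ and 2 higher in LQ.

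Transporters and channels gave 7 of the 28 genes in their list. Monocarboxylate transporter 12-B (LOC100647965, NC_015766.1, 4047327 to 4066123, minus strand) belongs to a family of plasma membrane carriers of small organic molecules. Its abundances were 18.4, 22.7 and 18.9 in EQ, 18.1, 18.7 and 17.8 in EW, 25.9, 33.8 and 29.2 in MQ, 27.2 and 26.4 in MW, 166, 165 and 116 in LQ, and 106, 190.0 and 199 in LW. Every late library was far above the others, LW1 the lowest of them, and the castes overlapped at the mid and late stages. The gene lies wholly within the span of an unnamed annotated feature of 47697 bp, which had a late excess of 0.97, so reads in the shared 18797 bp may belong to either.

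Facilitated trehalose transporter Tret1-like (LOC100643557, NC_015762.1, 4085855 to 4103802, minus strand) is named for the carrier that lets trehalose leave the fat body. Its abundances were 450.3, 554 and 448 in EQ, 435, 383 and 391 in EW, 448, 677 and 529.9 in MQ, 479.8 and 387 in MW, 1538, 1096 and 2213 in LQ, and 1164, 1169 and 1385 in LW. All late libraries were above all others, LQ4 the highest, and the castes overlapped at the mid and late stages. The gene lies wholly inside RING-box protein 2 (LOC100643679, NC_015762.1, 4085092 to 4110413, plus strand), the RING subunit of cullin ubiquitin ligases, on the opposite strand. The abundances of RING-box protein 2 were 603, 752 and 621 in EQ, 592, 519 and 563 in EW, 581, 890.2 and 670.2 in MQ, 655 and 533 in MW, 1747, 1253 and 2409 in LQ, and 1348, 1337 and 1549.7 in LW. The latter followed the former library by library, at a ratio of 1.34 to 1.44 early, 1.26 to 1.38 mid and 1.09 to 1.16 late. Whether the authors' counting used strand is not given in the sources used here, and 70.9% of the span of RING-box protein 2 is shared, so the late excess cannot be assigned to either gene alone.

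The alpha subunit of the glutamate-gated chloride channel (LOC100649514, NC_015776.1, 2792021 to 2880075, plus strand), an inhibitory channel of invertebrate neurons and muscle, had these abundances: 1138, 1033 and 897 in EQ, 893, 876 and 619 in EW, 611, 1304 and 623 in MQ, 709 and 1280.5 in MW, 2640.4, 2716 and 3081 in LQ, and 1035, 2151 and 2254 in LW. The late libraries other than LW1 were above all earlier ones and every LQ library was above every LW library (log2 difference 0.71, SE 0.33, adjusted p = 0.237). Its span of 88055 bp holds a pair of small features with far higher abundances. One is trypsin 3A1-like, a digestive protease of 1767 bp with a mean of 37956 and no late excess (-0.20). The other is an unnamed feature of 1433 bp with a mean of 17353 and a late excess of 4.53. How much of the late excess of the channel came from reads within them was not tested at the level of reads. Abundance times length gives a rough estimate only, since by it the pair exceeded the channel in EQ2 and EQ3. What remained per kb was 1091, 1028 and 1765 in LQ1, LQ2 and LQ4 and 886 in LW3. It was 146 in LW1 and 114 in LW2, within the early and mid range of -233 (EQ2) to 261 (EQ1). By this estimate LW1 and LW2 did not stand above the earlier libraries once the pair was taken out.

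**Figure D5:**
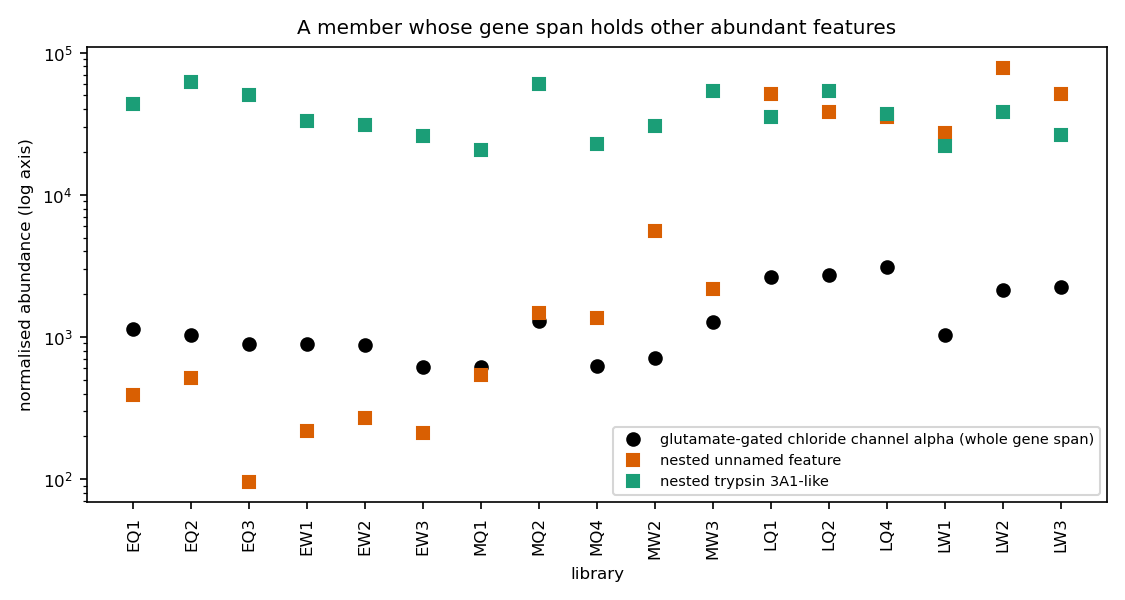
Normalised abundance on a log axis is given for the chloride channel gene and for both features nested in its span, 1 point per library. The unnamed feature is lowest in the early libraries and highest in the late ones, trypsin 3A1-like is at like levels in all stages, and the channel gene shows its late values with LW1 near the earlier ones.

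The remaining transport genes were lower or changed less. The calcium channel subunit alpha-2/delta-3 (3.47 to 8.37 early and mid and 16.4 to 39.8 late), an auxiliary subunit that brings voltage-dependent channels to the membrane, and the organic anion transporter 3A1 (24.9 to 43.5 early and mid and 54.9 to 76.6 late) had late values above all earlier ones. So did SLC18B1-like (68.9 to 259 early and mid and 263 to 570.1 late), a vesicular transporter for polyamines in mammals, and the pore-forming calcium channel LOC100648835 (230.2 to 303 early and mid and 312 to 426 late), a channel of endosomes and lysosomes. Of these 7 genes, 0 were called between castes by limma at either stage, and in the list of 28, 2 were called higher in MQ and 0 in LQ.

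Membrane traffic was the role with the most members, 15 of the 28 genes in the list, beside 60 of all 383 named features. The role lists were chosen with earlier results known, and 198 of the 383 but only 3 of the 60 were in no list. How many genes each list gave is therefore not read as a result. Of the 15, 6 were called higher in MQ and 3 higher in LQ. In the list as a whole 11 of 28 were called higher in MQ and 4 in LQ, with medians of 0.28 and 0.22. Pleckstrin homology domain-containing family M member 2 (LOC100649782, NC_015773.1, 7028246 to 7034805, minus strand), which in mammals couples lysosomes to kinesin motors, had by far the largest late excess of the 15 (2.71). Its abundances were 128, 110.2 and 103 in EQ, 92.97, 97.6 and 102 in EW, 167, 159.8 and 154 in MQ, 154 and 140.3 in MW, 1001, 1189 and 1368 in LQ, and 704, 1160.1 and 1472 in LW. LW1 was the lowest late library, the stages did not overlap, and the castes did at the mid and late stages.

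Among the genes of the route from the endoplasmic reticulum through the Golgi, sly1 homolog (LOC105667087, NC_015763.1, 8790832 to 8793181, minus strand), a partner of the SNARE proteins that fuse vesicles there, was higher in MQ (log2 difference 0.63, SE 0.17, adjusted p = 0.0411). Its abundances were 195, 178 and 159.8 in EQ, 125, 155 and 149.8 in EW, 275, 283 and 248 in MQ, 176 and 156 in MW, 465, 478 and 357 in LQ, and 265, 414 and 378 in LW. Transmembrane 9 superfamily member 2-like (LOC100650194, NC_015765.1, 2466575 to 2469078, plus strand), a Golgi and endosome membrane protein, had a similar difference (log2 difference 0.67, SE 0.15, adjusted p = 0.0172). Its abundances were 76.7, 77.4 and 74.9 in EQ, 75.7, 65.6 and 51.7 in EW, 127, 141 and 112 in MQ, 73.6 and 69.8 in MW, 185, 243 and 182 in LQ, and 124, 149.8 and 152 in LW. In both, MW stayed near the early values while MQ lay above them, and LW1 was below MQ1 and MQ2. The Golgi phosphoprotein 3 homolog rotini (LOC100649723, NC_015763.1, 1947042 to 1950583, minus strand), which binds a Golgi lipid and sorts cargo, had the smallest adjusted p of these 3 (log2 difference 0.56, SE 0.12, adjusted p = 0.0140). Its abundances were 343, 332 and 323 in EQ, 301, 319 and 247 in EW, 384, 383 and 387 in MQ, 273 and 237 in MW, 613, 629 and 569 in LQ, and 430.3, 502 and 562 in LW. None of the 3 was called at the late stage (0.29, 0.46 and 0.27, adjusted p = 0.287, 0.0666 and 0.156), and coatomer subunit delta (646 to 948 early and mid and 863 to 1254 late), part of the coat of retrograde vesicles, was called at neither. The mid calls of rotini and transmembrane 9 superfamily member 2-like were lost without MW2 or MW3, and that of sly1 in 7 of the 17 fits.

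Bicaudal D (LOC100646788, NC_015770.1, 14374405 to 14383052, minus strand), an adaptor between cargo and the dynein motor, was higher in queen-destined larvae at both stages (log2 difference 0.51, SE 0.09, adjusted p = 0.00516 at mid and log2 difference 0.41, SE 0.08, adjusted p = 0.00932 at late). Its abundances were 131, 145 and 129.8 in EQ, 122, 120.1 and 118 in EW, 199.7, 189 and 213 in MQ, 131 and 137 in MW, 289, 253 and 278 in LQ, and 201, 203 and 195 in LW. The MQ libraries reached the level of the LW libraries, and MW lay within the range of the early values. The late call held in each of the 17 fits that leave out a library, and the mid call in 16, with adjusted p = 0.0582 without MW2. Calsyntenin-1 (LOC100647395, NC_015775.1, 3003067 to 3019646, plus strand), a transmembrane cargo receptor for kinesin, was also called at both stages (log2 difference 0.61, SE 0.17, adjusted p = 0.0436 at mid and log2 difference 0.58, SE 0.15, adjusted p = 0.0476 at late). Its abundances were 145, 158 and 136 in EQ, 121, 111 and 88.7 in EW, 227, 139 and 186 in MQ, 115 and 107 in MW, 265, 257 and 291 in LQ, and 207, 162 and 159 in LW. The ranges of the castes were apart at both stages, yet MQ2 stood close to MW2 and each call held in only 4 of the 17 fits.

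MAP kinase-activating death domain protein (LOC105666583, NC_015776.1, 5061716 to 5098638, plus strand), known for activating the small GTPase Rab3 of secretory vesicles, had the smallest adjusted p of the 60 for a caste difference. Its abundances were 3.83, 4.3 and 3.97 in EQ, 3.24, 3.47 and 3.88 in EW, 6.34, 7.45 and 8.47 in MQ, 2.83 and 3.2 in MW, 30.3, 41.4 and 32.3 in LQ, and 7.23, 13.7 and 10.5 in LW. The late values of the LQ libraries were far above those of the LW libraries, and LW1 lay within the MQ range. It was called at the late stage (log2 difference 0.84, SE 0.08, adjusted p = 9.45e-05) with a ratio of means of 3.31, and it was called in each of the 17 fits with 1 library left out (adjusted p 8.97e-05 to 0.000710). All these fits share a spread that comes mostly from libraries where the gene is low, so its standard error can be too small. With late libraries alone it was not called (adjusted p = 0.0825). At the mid stage it was 0.25 (SE 0.09, adjusted p = 0.0943) with a ratio of means of 2.46, and the change between stages was 0.59 (SE 0.12, adjusted p = 0.0236). The abundances of this gene are near the offset of 20, so these log2 values understate its fold, and with an offset of 1 the change was not called (0.60, adjusted p = 0.315).

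The other genes of traffic were higher late by smaller amounts. Rab-8A (156 to 231 early and mid and 268 to 431 late) and Rab-11A (613 to 729 early and mid and 833 to 1048 late) direct vesicles to the surface and through recycling endosomes, Hook homolog 3-like (90.00 to 148 early and mid and 181 to 308 late) joins cargo to dynein, and F-BAR domain only protein 2 (88.3 to 122 early and mid and 139 to 226 late) starts clathrin-coated pits. Myotubularin-related protein 3 (137 to 209 early and mid and 227 to 333 late) removes phosphate from phosphoinositides. TBC1 domain family member 14-like (20.2 to 52.04 early and mid and 42.4 to 81.4 late), of a family of Rab-inactivating proteins, was called higher in MQ (log2 difference 0.51, SE 0.14, adjusted p = 0.0385), and TBC1 domain family member 10A (290.0 to 387 early and mid and 373 to 649 late) was called at neither stage. The call of the former held in only 9 of the 17 fits with 1 library left out.

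Protein turnover gave 6 of 17 genes, of which 2 were called higher in MQ and 1 higher in LQ, and 16 of the 17 had a late excess above 0. In the list as a whole 7 of 17 were called higher in MQ and 2 higher in LQ. F-box only protein 33 (LOC100649881, NC_015768.1, 1614617 to 1621386, minus strand), a substrate-binding subunit of a ubiquitin ligase, was higher in MQ (log2 difference 0.53, SE 0.12, adjusted p = 0.0172). Its abundances were 14.02, 19.7 and 14.6 in EQ, 8.87, 11.2 and 9.5 in EW, 25.8, 31.6 and 32.6 in MQ, 13.7 and 15.3 in MW, 63.1, 85.5 and 78.8 in LQ, and 46.1, 61.4 and 55.1 in LW. MW stayed within the early range of both castes, MQ lay between it and the late values, and LW1 was the lowest late library. The call held in 14 of the 17 fits and was lost without MQ4, MW2 or MW3 (highest adjusted p = 0.141). SMURF2 (22.6 to 44.5 early and mid and 44.9 to 60.6 late), a ubiquitin ligase that dampens BMP signalling, was also called (log2 difference 0.36, SE 0.09, adjusted p = 0.0305), with 13 of the 17 fits.

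RING finger protein 11 (LOC100647529, NC_015763.1, 4790235 to 4793013, plus strand), an adaptor of other ubiquitin ligases, was higher in LQ (log2 difference 0.51, SE 0.11, adjusted p = 0.0223). Its abundances were 969, 1002 and 989.9 in EQ, 928, 847 and 959 in EW, 912, 1141 and 893 in MQ, 973 and 892 in MW, 1615, 1759 and 1581 in LQ, and 1007, 1142 and 1337 in LW. LW1 lay among the values of the earlier stages and LW2 at the level of MQ2, the highest of them, while the LQ libraries were above all others. The call was lost without LQ1, LQ2, LW1 or LW2. RMD5 homolog A (94.4 to 118 early and mid and 151 to 242 late), of a ligase complex first described in yeast, and the ER degradation-enhancing mannosidase-like protein 3 (90.8 to 152 early and mid and 147 to 215 late), which marks misfolded glycoproteins for breakdown, were not called at either stage.

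Kinases and growth control gave 9 of 26 genes, 2 of them called higher in MQ and 2 higher in LQ, while the list as a whole had 7 and 4. MOB kinase activator-like 1 (LOC100644818, NC_015773.1, 8614095 to 8619353, plus strand), whose fly homologue Mats activates the Warts kinase of the growth-limiting Hippo pathway, was higher in LQ (log2 difference 0.49, SE 0.10, adjusted p = 0.0157) and not in MQ (0.08, adjusted p = 0.712). Its abundances were 222, 225 and 209 in EQ, 206, 210.2 and 193 in EW, 244, 261 and 251 in MQ, 235 and 239 in MW, 695, 640.1 and 651 in LQ, and 391, 469 and 555 in LW. The stages were apart and every LQ library exceeded every LW library, LW1 being the lowest. Among the fits with 1 library left out, the call was lost only without LQ1 (adjusted p = 0.0712) and held without LW1 at 0.36. It was also lost with late libraries alone, and the highest adjusted p of all alternatives was 0.213. Serine/threonine-protein kinase 32A (LOC100646573, NC_015762.1, 347419 to 361114, plus strand) had a larger difference in the same direction (log2 difference 0.73, SE 0.16, adjusted p = 0.0248). Its abundances were 17.5, 16.3 and 15.3 in EQ, 14.9, 14.5 and 15.1 in EW, 18.6, 23.9 and 24.8 in MQ, 18.3 and 19.02 in MW, 91.9, 60.7 and 95.2 in LQ, and 26.2, 43.2 and 58.6 in LW. LW1 was close to MQ4, and without LW1 the difference of 0.52 was no longer called (adjusted p = 0.0634), as was also true without LQ1, LQ4 or LW2. Nor was it called with late libraries alone. The shared spread comes mostly from libraries where this gene is low, so its standard error can be too small.

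BTG2-like (559 to 928 early and mid and 1119 to 1644 late), of a family that restrains cell division, was called higher in MQ (log2 difference 0.51, SE 0.11, adjusted p = 0.0179), as was lethal(2) giant larvae homolog 1 (108 to 172 early and mid and 175 to 223 late), a cell polarity protein known as a tumour suppressor in flies (log2 difference 0.39, SE 0.09, adjusted p = 0.0243). These calls held in 14 and 13 of the 17 fits with 1 library left out. Charybde-like (139 to 533 early and mid and 357 to 932 late), whose fly homologue inhibits TOR signalling, had MQ above MW and LQ above LW with mean ratios of 1.98 and 1.80, but neither difference passed the test (adjusted p = 0.0555 and 0.0892). The S6 kinase beta-1-like gene (280.5 to 431 early and mid and 445 to 605 late), a growth-promoting target of TOR, was called at neither stage. Cyclin-dependent kinase 14 (172 to 226 early and mid and 264 to 383 late), the apoptotic nuclease subunit DNA fragmentation factor beta (3.29 to 6.77 early and mid and 10.1 to 30.5 late) and baculoviral IAP repeat-containing protein 2-like (312 to 399 early and mid and 438 to 575 late), of a family of caspase inhibitors, were not called either.

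Transcription factors and chromatin proteins gave 5 of 40 genes, beside 60 of all 383 named features. Of the 5, 1 was called higher in MQ and 1 higher in LQ, and in the list of 40 these counts were 9 and 1. Steroid hormone receptor ERR1 (23.6 to 41.9 early and mid and 62.3 to 109 late), whose fly homologue turns larval metabolism towards sugar use and growth, had late values above all earlier ones and was not called between castes. Tramtrack beta isoform-like (LOC105666862, NW_003566126.1, 1076343 to 1076895, minus strand), a repressor of cell fate genes in flies, was higher in MQ (log2 difference 0.81, SE 0.23, adjusted p = 0.0450). Its abundances were 85.96, 108 and 105 in EQ, 73.5, 37.04 and 45.5 in EW, 86.3, 88.8 and 122 in MQ, 53.03 and 42.1 in MW, 109.6, 175 and 119 in LQ, and 112, 84.4 and 81.6 in LW. LW2 and LW3 were below several early and mid libraries, and EW1 stood apart from the other EW libraries. The call held in 6 of the 17 fits. Big brother-like (LOC100649667, NC_015772.1, 15457627 to 15467538, plus strand), named for the partner that lets Runx factors bind DNA, was higher in LQ (log2 difference 0.65, SE 0.14, adjusted p = 0.0165). Its abundances were 19.7, 18.1 and 17.5 in EQ, 14.5, 13.6 and 12.2 in EW, 15.3, 16.1 and 19.8 in MQ, 15.6 and 13.2 in MW, 39.99, 60.1 and 29.2 in LQ, and 16.3, 24.7 and 17.8 in LW. LW1 and LW3 lay within the range of the earlier libraries, and LQ2 was the highest library of all. The call was lost without LQ1 or without LW1 (adjusted p = 0.0573), and also with late libraries alone. Its standard error too can be too small, as the shared spread comes mostly from libraries where the gene is low. ZIC 1-like (720.0 to 1082 early and mid and 1182 to 1462 late), of the family of the fly gene odd-paired, and the zinc finger protein LOC100645014 (1.85 to 10.1 early and mid and 9.34 to 22.8 late) were not called.

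RNA binding and translation gave 4 of 13 genes, with 2 called higher in MQ and 0 of the 4 called at the late stage by limma. In the list of 13, 4 were called higher in MQ and 0 in LQ. Vigilin (LOC100650030, NC_015764.1, 11148819 to 11156747, plus strand), a protein with many KH domains that binds mRNA, was higher in MQ (log2 difference 0.77, SE 0.16, adjusted p = 0.0126) and was 0.30 higher in LQ without passing the test (adjusted p = 0.235). Its abundances were 767, 725 and 742 in EQ, 631, 671 and 683 in EW, 1149, 980.2 and 1284 in MQ, 596 and 719 in MW, 1837, 2328 and 2417 in LQ, and 1442, 1878 and 2022 in LW. The MQ libraries lay between the early and the late values while MW stayed at the early level, and the call was lost without MQ4, MW2 or MW3. Eukaryotic translation initiation factor 4 gamma 2 (514 to 752 early and mid and 802 to 989.9 late), which starts translation of selected mRNAs, was called higher in MQ (log2 difference 0.40, SE 0.09, adjusted p = 0.0189) with a late difference of 0.01. Its mid call held in 14 of the 17 fits with 1 library left out. Its change between the stages was not called in the main fit. Among the fits with 1 library left out, it was called only without LW1 (-0.47, adjusted p = 0.0432). The ribonucleoproteins Q-like (175 to 392 early and mid and 424 to 619.8 late) and R (42.5 to 106 early and mid and 96.7 to 174 late), which bind nascent transcripts, kept a ratio between 3.55 and 4.53 over the 17 libraries and were called at neither stage. Q-like lies on an unplaced scaffold, and how far these genes share reads was not tested.

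The last 3 genes were in no list. Dynein light chain 1, axonemal-like (LOC105665976, NC_015768.1, 17144345 to 17148965, minus strand), named for a motor subunit of cilia, was near 0 before the late stage, with 0.357 to 1.88 early and mid and 8.51 to 54.5 late. Transmembrane protein 8A-like had 40.6 to 54.3 early and mid and 74.7 to 126 late. Centrosomal protein of 104 kDa (LOC100650072, NC_015765.1, 11142916 to 11148147, minus strand), a protein of the ciliary tip, shares 42 bp with a more abundant unnamed feature. Its abundances were 34.3, 40.6 and 33.6 in EQ, 28.5, 31.9 and 28.6 in EW, 29.05, 39.8 and 29.2 in MQ, 38.1 and 35.3 in MW, 85.96, 79.3 and 55.97 in LQ, and 35.4, 52.04 and 52.6 in LW. Every LQ library was above every LW library, LW1 lay among the earlier values, and the difference did not pass the test (log2 difference 0.49, SE 0.14, adjusted p = 0.0599). Besides the overlaps described above, 4 of the 60 genes shared between 6 and 698 bp with a less abundant feature, and 51 overlapped no other feature of the table.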

How the data were processed

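Messenger RNA of pooled whole larvae was sequenced by the authors, who removed poor reads, resampled every library to the size of the smallest one kept, and aligned reads with PatMaN, reads with several matches included, to genome and genes of Bter_1.0. The deposited signal values are the authors' reads per feature, scaled to transcript length and quantile-normalised over 17 libraries. Whether that length counted introns was not settled here, so levels of different genes are not compared closely. They hold no counts and give no depth, and the only measure of error is how far libraries of a phenotype lie apart. The groups came from the sample titles. Replicates are pools, often of colonies shared between stages, and p-values measure the spread between these pools.

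Caste differences were tested with limma 3.58.1 in R 4.3.3 in a single model of log2(abundance + 20) that held the 14817 features, the 17 libraries and a mean for each of the 6 phenotypes, with the prior spread following intensity. Benjamini-Hochberg adjustment ran over the 14817 features of each comparison, and a gene was called at an adjusted p under 0.05. Degrees of freedom were 11 residual plus 2.35 prior, and the procedure was tested on simulated data. Alternatives were offsets of 1 and 50, annotated features only, a minimum mean of 100, median centring, no trend, library weights, libraries of 1 stage only, a replicate or colony block and leaving out each library. A term for the library set was added after the data were seen. It divided the libraries into 9 with high and 8 with low values of an unannotated transcript on an unplaced scaffold.

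The genes and the role lists were chosen with earlier results of these data known. Names came from the study's supplement, none of whose values was used, and 54 of the 60 symbols were also found in the RefSeq table of the newer assembly iyBomTerr1.2, whose coordinates were not used. Values in every library are given for the 12 genes with the largest late excess, for up to 8 called genes per comparison and direction, and for genes overlapping a feature at least as abundant. Other genes are given by ranges. Libraries MQ3, LQ3 and MW1 had been removed by the authors and were not analysed here. They removed MQ3 and LQ3 for few reads, and MW1 because it was less like the other MW libraries. The MW libraries that remain were thus kept partly for their likeness, so the spread between them may be too small.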

Additional observations from a re-analysis of the deposited data

Results flagged for a closer look

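The caste difference of the MAP kinase-activating death domain protein, which activates Rab3, differed between the stages on the log2(abundance + 20) scale. Queen minus worker was 0.25 in mid-instar and 0.84 in late-instar larvae, and the difference between these values was 0.59 (SE 0.12, adjusted p = 0.0236 by limma over all features). All 3 LQ libraries were above all 3 LW libraries. Without LW1, the late library nearest to the mid stage, the change was 0.51 (adjusted p = 0.0257). It was not called without MW2 (adjusted p = 0.0882), without MW3 (adjusted p = 0.0908) or with an offset of 1 (0.60, adjusted p = 0.315). Mid abundances were under the offset of 20, which shrinks the mid value, and the ratios of queen to worker means were 2.46 at mid and 3.31 at late.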

How the results depend on the processing

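No result below turned its direction. The MQ count of 14 became 23 with library weights, 9 with the library set term and 0 with mid libraries alone, and the LQ count of 8 became 17 with weights, 4 with a mean of at least 100 (39 genes tested) and 0 with late libraries alone. The worker counts of 0 became 2 at the mid stage with weights, and 1 at the late stage with weights or with annotated features only. Changes towards queen-destined larvae, 1 as reported, were 7 with weights, 0 with an offset of 1 and 0 with a mean of at least 100, and those towards worker-destined larvae 6 with weights. The median mid difference of 0.24 was 0.17 with an offset of 50. The causes were not tested, beyond the fewer libraries or genes that some of these fits hold.

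Leaving out each library in turn gave 0 to 18 for the MQ count, 0 to 1 for MW, 3 to 10 for LQ, 0 to 1 for LW, 0 to 3 for changes towards queen-destined and 0 to 1 for changes towards worker-destined larvae, with 0.19 to 0.26 for the median mid difference.

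With a replicate block the MQ count was 6. Same-numbered libraries of both castes came from different colonies. Their deviations correlated at 0.00 (MQ2 and MW2), 0.16 (LQ1 and LW1) and 0.36 (LQ2 and LW2). For EQ and EW the values were 0.22 (number 1), -0.06 (number 2) and 0.36 (number 3). Same-numbered mid and late libraries of 1 caste ran from 0.01 (MW2 and LW2) to 0.38 (MQ2 and LQ2). Whether libraries of the same number share some other factor was not tested. With the colony as a random block (correlation 0.15) the MQ count was 15 and the LQ count 8.

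The choice of the genes depended on the offset: 46 of the 60 were also chosen with an offset of 1 and 54 with an offset of 50, and 57 to 60 with a library left out. The values hold no counts, and 8 of the genes were under 20 in every early and mid library, where the offset outweighs the value.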
